A study of Homo sapiens with 9 samples.

Results

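Untreated expression in PC3 xenografts was measured by RNA-Seq in the 3 tumors of mice that received the vehicle, PBS, and no antibody-drug conjugate. These are 3 of the 9 libraries of the study, chosen by their PBS title and treatment label, and all 16204 genes listed for them in either of 2 deposited tables were used. The other 6 libraries come from mice given conjugates directed at HER2 or HER3 and were not used here. PC3 is an established human cell line from a bone metastasis of prostate cancer. Per the series record, the cells were injected under the skin with Matrigel, a basement membrane extract, into male NSG mice, which lack T, B and natural killer cells but keep their own fibroblasts, vessels, muscle and part of their myeloid cells. The mice were 11 weeks old, treatment began at a tumor volume of 90 mm3, and PBS was given retro-orbitally in 5 weekly cycles. The study's methods give these values for an earlier experiment with a HER2 conjugate alone and other values for the one that compared both conjugates, so which apply to these tumors is uncertain. RNA came from lysed tumor tissue, and the sources used here do not state whether reads of mouse cells were removed before counting. One line was used, the 3 tumors share its cells, and no untreated PC3 culture is among the libraries, so levels describe these tumors alone.

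Prostate epithelium has luminal cells, which secrete kallikreins such as KLK3 (prostate-specific antigen), and basal cells, which carry keratins 5 and 14 and rest on laminin through hemidesmosomes. Most prostate cancers keep the luminal program. PC3 is known for growth without androgen, for loss of the adherens junction protein alpha-catenin and for secreted factors that act on bone. Levels are given per length as TPM, in which each gene's share of all length-corrected counts is scaled to a total of 1000000 per tumor, computed over the 15989 listed genes with a known exon length. Comparisons of 1 gene between tumors use CPM, each gene's counts per 1000000 counts of the library without a length correction, scaled by the trimmed mean of M values (TMM). Values for a gene are listed in the order tumor 1, tumor 2, tumor 3, which are replicate numbers only.

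The libraries held 90762020, 125538975 and 110457728 counts, and between 15992 and 16121 of the listed genes had a count in a tumor. Tumors 2 and 3 were close and tumor 1 stood apart. Across 12608 genes with a mean of at least 1 CPM, the SD of the log2 difference was 0.295 between tumors 2 and 3, against 0.648 between tumors 1 and 2 and 0.740 between tumors 1 and 3. Counts of each pair differed by far more than sampling noise, with a chi-square statistic per gene of 37.9 for the closest pair, so they were kept as 3 samples. That statistic covers counting error alone and does not show that the libraries come from separate tumors. With 3 samples in 1 group, no test between tumors is possible. Results on spread are therefore descriptions, given with tumor 1 and without it.

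Of the 15989 genes with a length, 12049 were expressed, defined as at least 1 TPM in each of the 3 tumors (75.4%), and 3940 were low. Without tumor 1, 12377 genes met the same limit. At 10 TPM or more in each tumor there were 8559 genes, at 100 TPM 1707 and at 1000 TPM 85. Counts for the gene lists below are to be read beside these values for all genes. The median expressed gene had a mean of 27.6 TPM. The 100 most counted genes held between 15.2% and 16.7% of all counts in a tumor, so no library was dominated by a few transcripts.

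The most abundant nuclear transcripts outside ribosomal proteins included genes of the cytoskeleton, of secreted proteases and their inhibitors, and of the interferon response. TMSB10, a thymosin that binds monomeric actin, had 12376, 12906 and 14239 TPM in the 3 tumors. PLAU, the urokinase that converts plasminogen to plasmin at the cell surface, followed with 7939.9, 12145 and 10813 TPM and ranked 3 among all genes by mean TPM. PI3 encodes elafin, an inhibitor of neutrophil elastase, and had 5013, 7184 and 9992 TPM. TMSB10 was the steadiest of these 3 genes, and PLAU and PI3 were lowest in tumor 1. KRT81, a keratin of the hair shaft, had 3642, 3644 and 4125 TPM, beside the chaperone HSP90AB1 with 4222, 3679 and 3408 TPM. The interferon-induced genes IFI6 and ISG15 were in the same top 15, with means of 3561 ± 538 and 2655 ± 309.6 TPM (SD, n = 3). S100A9, a calcium-binding protein of myeloid and stressed epithelial cells, had 938, 3770.0 and 4518 TPM, so that tumor 1 was far below the other 2. The other 7 genes of the 15 were ACTB, S100A6, TAGLN2, PRDX5, CALR, ACTG1 and SAT1, with means between 2679 and 3618 TPM. Of the 15, TMSB10, PLAU and KRT81 overlap another listed gene.

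**Figure D1:**
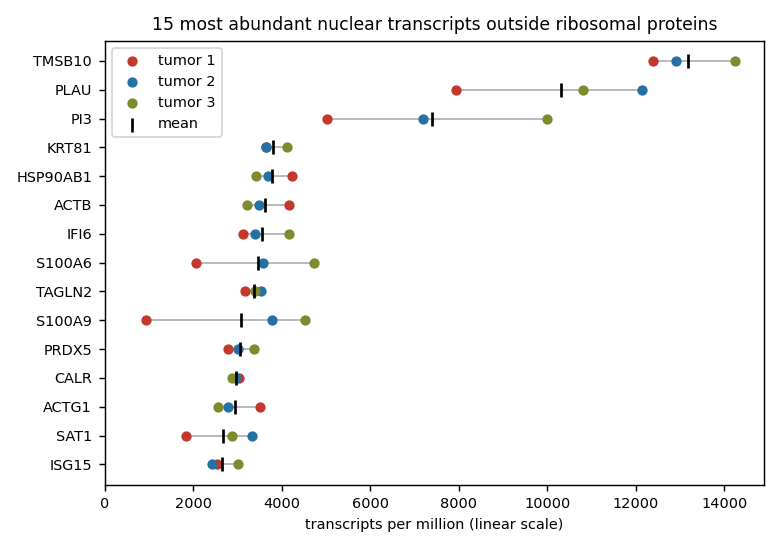
Level of the 15 most abundant nuclear transcripts outside ribosomal protein genes, in TPM on a linear axis that starts at 0. Points are the 3 tumors, the short bar is their mean and the grey line spans them; S100A9 and S100A6 are lowest in tumor 1, and TAGLN2 and CALR hardly differ.

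MT-CO1, a mitochondrially encoded subunit of cytochrome c oxidase, had the highest mean TPM of all genes, with 20578, 13675 and 10394 TPM and tumor 1 highest. All 13 mitochondrial genes together held 2.06%, 1.65% and 1.298% of counts. The 87 ribosomal protein genes held 4.74%, 3.76% and 3.70%, led by RPL8 with 5149.6, 4224 and 4137 TPM. Both shares were highest in tumor 1, the tumor that stands apart in the results that follow, and their part in those results was not tested.

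Genes by which PC3 is recognised were checked first. KLK2 and KLK3, the best known secreted kallikreins of the prostate, were listed in neither table. CTNNA1, which encodes alpha-catenin, had 8.93, 6.49 and 5.67 TPM, with a mean at the 38.2nd percentile of all genes with a length. Its binding partner CTNNB1, beta-catenin, had 177, 159 and 159 TPM, at the 93.0th percentile. Next to CTNNA1, HSPA9 had 245, 194 and 174 TPM and ETF1 229.5, 187 and 187 TPM, whereas SIL1 had 11.7, 7.93 and 8.54 TPM, a level near that of CTNNA1 itself. Further out, EGR1, REEP2 and KDM3B on the side of HSPA9 had means of 9.97, 2.11 and 40.2 TPM. MATR3 and PAIP2 on the side of SIL1 had means of 124 and 93.4 TPM. Whether the reads of CTNNA1 came from human or mouse cells was not tested.

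Of 40 genes that are often altered in prostate cancer, 37 were expressed, beside 75.4% of all genes. The 3 that were not are MYCN, the ETS factor ERG and the trypsin inhibitor SPINK1, with means of 0.161 ± 0.0571, 0.372 ± 0.212 and 0.736 ± 0.471 TPM. RB1, the retinoblastoma protein, was present at 42.8, 34.4 and 43.4 TPM, and CCND1, the cyclin that drives its phosphorylation, at 292, 346 and 352 TPM. MYC had 242, 145 and 128 TPM. The ETS factors ETV4 and ETV5, at means of 108 ± 12.8 and 39.4 ± 5.34 TPM, stood above ETV1 at 4.84 ± 1.44 and ERG.

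Luminal genes were split. Of 22 genes of the luminal program, 13 were expressed, 6 were low and 3 (KLK2, KLK3 and HPN) were not listed. The 13 of 19 listed are a share near the 75.4% of all genes. FOLH1, which encodes prostate-specific membrane antigen, had 9, 9 and 1 counts and at most 0.0755 TPM. By contrast HOXB13, the homeobox gene that marks prostate and distal colon, had 28.6, 43.1 and 40.3 TPM, and STEAP1, a metalloreductase of the cell surface, had 155, 195 and 211 TPM. FOXA1, a pioneer factor that opens chromatin in luminal cells, had 21.1, 47.7 and 50.8 TPM, and tumor 1 was below the other 2.

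Neuroendocrine markers were low for the most part: of 22 genes 19 were listed and 7 expressed, beside 75.4% of all genes. CHGA, chromogranin A, had 0.222, 0.278 and 0.457 TPM, INSM1 had at most 0.0472 TPM, and NEUROD1 was not listed. Those at 10 TPM or more in each tumor were SCG5, PEG10 and ENO2. SCG5, a chaperone of prohormone convertase, had 200.1, 122 and 116 TPM. PEG10, a gene derived from a retrotransposon, had 176, 196 and 226 TPM, and ENO2, neuronal enolase, had 14.2, 49.8 and 49.4 TPM. DLL3, a Notch ligand that is a target in neuroendocrine tumors, was at 9.12, 6.78 and 6.22 TPM. SYP, synaptophysin, was just above the limit in each tumor, at 1.28, 1.36 and 1.497 TPM.

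Basal and simple epithelial genes were present together. All 16 basal genes were listed, 15 were expressed and 10 were at 100 TPM or more in each tumor. Of all genes 75.4% were expressed, and 1707 of 15989 reached 100 TPM in each tumor. LAMB3 and ITGB4, which encode a laminin chain and the integrin that binds it at hemidesmosomes, had 1721, 1509 and 1581 and 1036, 1358 and 1462 TPM. TP63, the master factor of basal cells, had 56.9, 36.4 and 30.8 TPM. Only DSG3, a desmosomal cadherin, fell under the limit, in tumors 2 and 3. Of 26 simple epithelial genes 25 were expressed, the exception being KRT20 at 0.324 ± 0.186 TPM. KRT7 and KRT19, keratins of simple epithelia, had 1071, 1215 and 1246 and 784, 1233 and 1496 TPM, and EPCAM had 452, 693 and 769.6 TPM. CDH1, E-cadherin, had 155, 173 and 176 TPM.

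All 18 mesenchymal genes were expressed in the same tumors. VIM, vimentin, had 204, 291 and 292 TPM and FN1, fibronectin, 422, 574 and 725 TPM. The transcriptional repressors of E-cadherin were unequal in level, since SNAI2 had 163, 102 and 83.8 TPM but ZEB1 and ZEB2 had means of only 1.72 ± 0.547 and 5.97 ± 1.85 TPM. ESRP1, a splicing factor of epithelial cells that ZEB1 represses, had 190.5, 244 and 251 TPM. AP-1 and YAP-TEAD genes were also present, with 22 of 23 expressed, beside 75.4% of all genes. FOSL1, an AP-1 subunit, had 482, 342 and 291 TPM against 5.805, 3.37 and 2.69 TPM for FOS.

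**Figure D2:**
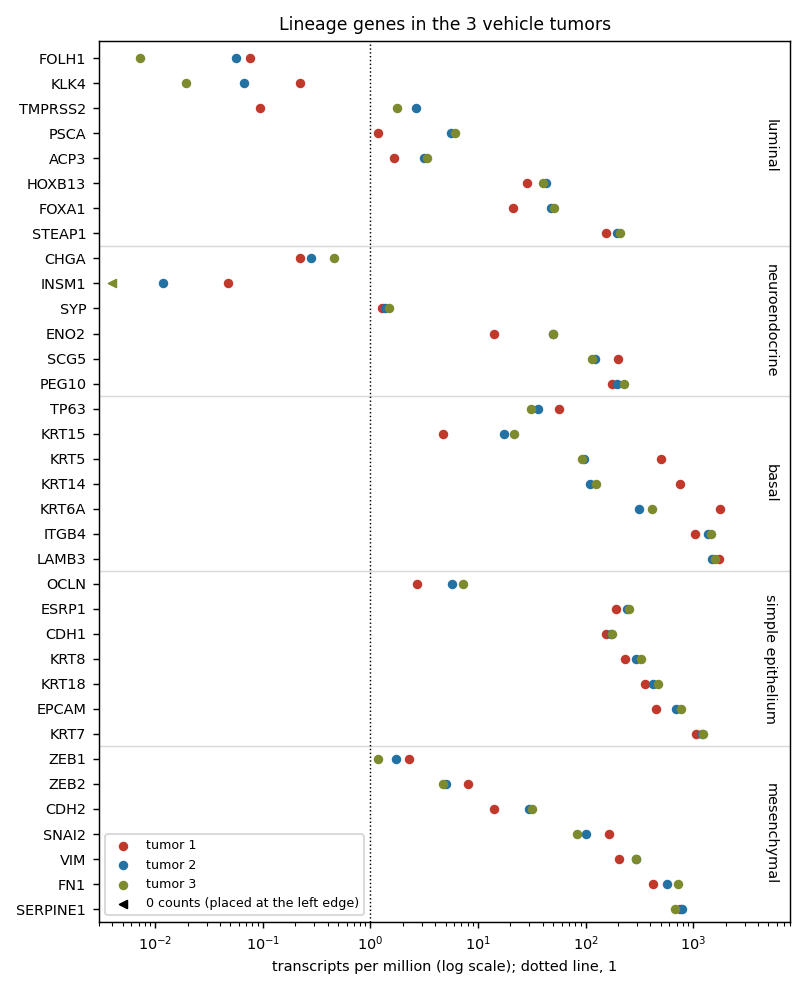
Levels of selected lineage genes in TPM on a log axis, 1 point for each tumor. FOLH1, KLK4, CHGA and INSM1 lie left of the dotted line at 1 TPM, and basal, simple epithelial and mesenchymal genes lie right of it in all 3 tumors.

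HOX genes keep a record of position along the body axis. In the 4 clusters, 37 of 39 HOX genes were listed and 30 were expressed, near the 75.4% of all genes, with 11 of 11 in the HOXA cluster, 9 of 10 in HOXB, 7 of 9 in HOXC and 3 of 9 in HOXD. The highest were HOXB9 at 62.2, 84.8 and 69.2 TPM and HOXA9 at 55.4, 49.9 and 50.9 TPM. HOXD13, the last gene of its cluster, had 7.04, 4.04 and 3.26 TPM, while HOXD11 and HOXD12 stayed under 0.5 TPM.

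Nuclear receptors were also examined. Of 48 nuclear receptors 43 were listed and 25 were expressed, a lower share than the 75.4% of all genes. NR3C1, the glucocorticoid receptor, had 35.5, 35.6 and 40.3 TPM and was even between tumors. ESR1 and ESR2, the estrogen receptors, had means of 0.671 ± 0.293 and 0.617 ± 0.212 TPM, and PGR had 0, 4 and 5 counts. VDR, RARG and PPARD were each above 44 TPM in every tumor, and the 2 that passed 100 TPM throughout were ESRRA, at 120.2, 128 and 128 TPM, and NR2F6. Of the enzymes that make testosterone from cholesterol, the early ones were low or not listed, with CYP11A1 and CYP17A1 at 0.268 ± 0.201 and 0.128 ± 0.0543 TPM and both HSD3B1 and HSD3B2 not listed, whereas HSD17B3 and AKR1C3, which act at the last step, were expressed at 13.3, 4.32 and 2.503 and 14.8, 11.1 and 12.2 TPM. SRD5A1 and SRD5A3, reductases of testosterone and of polyprenol, were both expressed, with SRD5A1 at 9.08, 14.2 and 15.04 TPM.

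The receptors at which the conjugates of the study are aimed were both expressed in vehicle tumors. ERBB2, which encodes HER2, had 24.4, 49.4 and 55.05 TPM and ERBB3, which encodes HER3, had 9.23, 24.4 and 26.9 TPM. Tumor 1 was below the other 2 for both, by 1.89-fold and 2.47-fold in CPM against the nearer of them. EGFR was the most abundant member of the family at 107, 159 and 159 TPM, and ERBB4 was the least at 1.497, 0.442 and 0.525 TPM. Of the ligands, HBEGF and TGFA, which bind EGFR, had 209, 248 and 160.4 and 173, 125 and 122 TPM, whereas NRG1, the main ligand of HER3, had 0.149, 0.0567 and 0.0665 TPM. ASPN, the stromal proteoglycan that the study examines as a HER3 ligand, had 19.04, 16.01 and 13.4 TPM. ERBB2 and ASPN each overlap another listed gene, as do 5004 of the 16204 listed genes, and overlap is not stated here for every gene named. Whether the reads of ASPN came from human or mouse cells was not tested.

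Among 54 other receptor tyrosine kinases 28 were expressed, fewer than the share of all genes. EPHA2, an ephrin receptor, led with 499.5, 455 and 389 TPM, ahead of DDR1, a collagen receptor, at 193, 407 and 438 TPM and EPHB4 at 173, 307 and 333 TPM. MET and AXL had 116, 163 and 169 and 140.0, 153 and 139 TPM. KIT, RET, FLT1, NTRK2 and NTRK3 were under 0.1 TPM in every tumor, and FLT3 was not listed. ROS1, a kinase with little expression in most adult tissues, had 6.26, 26.6 and 23.2 TPM.

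Of 28 surface antigens used or tested as drug targets, 25 were listed and 18 expressed, a share near the 75.4% of all genes. At 100 TPM or more in each tumor there were 8, beside 1707 of 15989 genes. EPCAM, given above, was among the highest. F3, tissue factor, had 421, 167 and 114 TPM, TNFRSF10B, the death receptor DR5, 134, 165 and 145 TPM and CD276, B7-H3, 105, 149.7 and 137 TPM. Those at the other end were FOLH1, CEACAM5, PROM1 and CLDN18, each under 0.5 TPM, and KLK2, CDH6 and SLC34A2, which were not listed. Cancer-testis antigens were nearly all missing, with 6 of 35 listed and 1 expressed. That one was PRAME, at 48.1, 52.1 and 49.6 TPM.

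Some secreted factors that act on bone were abundant. Of 33 such genes 32 were listed and 25 were expressed, a share near the 75.4% of all genes, and 9 were at 100 TPM or more in each tumor. DKK1, an inhibitor of Wnt signaling and of bone formation, had 2495, 1457 and 1358 TPM. PTHLH, the parathyroid hormone-related protein that drives bone resorption, had 543, 239.7 and 154 TPM, and NOG, the BMP antagonist noggin, 134, 273 and 259.6 TPM. On the other hand TNFSF11, RANK ligand itself, had 0.705, 0.123 and 0.0703 TPM, and IBSP was not listed. The decoy receptor for RANK ligand, TNFRSF11B, had 1.96, 14.6 and 17.7 TPM, with tumor 1 lowest.

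Interferon-stimulated genes were abundant: 29 of 30 were expressed and 17 were at 100 TPM or more. Of all genes 75.4% were expressed, and 1707 of 15989 reached 100 TPM in each tumor. IFI27 had 472, 395 and 458 TPM and IFIT1 249.6, 215 and 258 TPM. The exception was MX1, an antiviral GTPase, at 0.565, 0.801 and 0.664 TPM, while its relative MX2 had 11.3, 11.96 and 17.6 TPM. All 24 sterol synthesis genes were expressed, led by EBP at 231, 246 and 222 TPM, and none of them varied by 2-fold or more between tumors. All 30 cell cycle genes were expressed too, with PCNA, the sliding clamp of DNA polymerase, at 831, 615 and 562 TPM.

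The second question was how far genes varied between tumors of the same group. Of 12608 genes with a mean of at least 1 CPM, 1553 (12.3%) had a highest tumor at least 2-fold above the lowest. Tumor 1 was the highest or the lowest in 1522 of these, or 98.0%, and was highest in 536 and lowest in 986. Between tumors 2 and 3 alone 94 genes (0.746%) were 2-fold apart, against 1086 (8.61%) between tumors 1 and 2 and 1432 (11.4%) between tumors 1 and 3. The common biological coefficient of variation, the relative spread beyond counting error that edgeR estimates, was 0.263 over the 3 tumors and 0.102 without tumor 1. Without tumor 2 or tumor 3 it was 0.333 and 0.296.

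**Figure D3:**
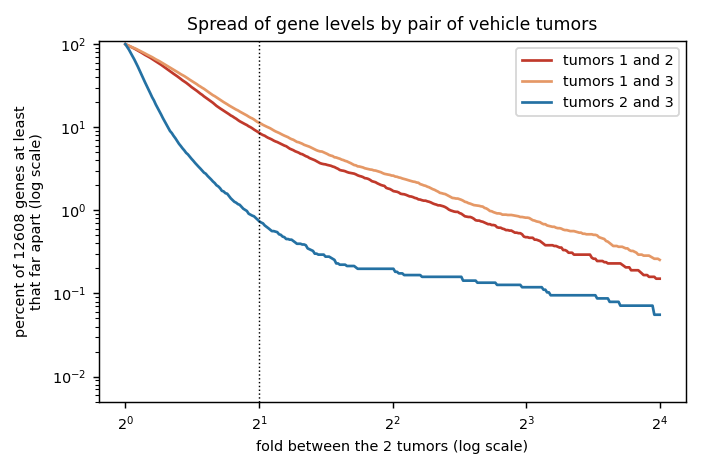
Share of 12608 genes, in percent on a log axis, that were at least a given fold apart (log axis) between 2 vehicle tumors, with the dotted line at 2-fold. At 2-fold the pairs with tumor 1 stand at 8.61% and 11.4%, and tumors 2 and 3 at 0.746%.

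Some genes hardly differed between the tumors. F12, coagulation factor XII, TBRG1, TTC37, PCF11 and OPA1 had the 5 smallest SDs of log2 CPM among genes with a mean of at least 10 CPM, and PANK3, RNF10 and PEPD were also among the 10 smallest. OPA1, which fuses inner mitochondrial membranes, had 183, 184 and 184 CPM, and PCF11, a factor of transcript cleavage, 77.2, 77.4 and 77.6 CPM. None of 20 genes in common use as a reference reached a 2-fold range. GAPDH had 1483, 1402 and 1406 CPM and TBP 22.5, 18.2 and 18.1 CPM, and B2M, which interferon induces, was the widest of those named here with 1182, 1727 and 2168 CPM.

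Tumor 1 was at least 2-fold above both others in 270 genes (2.14% of 12608) and at least 2-fold below both in 694 (5.5%). Among genes with a mean of at least 10 CPM, PTGS2, which encodes cyclooxygenase 2, was furthest above, with 523, 43.01 and 39.5 CPM, or 12.2-fold above the next tumor. DHRS2, a mitochondrial dehydrogenase, had 221, 26.1 and 13.3 CPM and MMP1, interstitial collagenase, 701, 88.8 and 69.8 CPM. The next 2 were basal keratins, KRT14 with 426, 58.3 and 65.5 CPM and KRT5 with 516, 93.98 and 88.9 CPM. In each of these 5 genes tumors 2 and 3 lay within 2-fold of one another and tumor 1 lay at least 5.49-fold above them.

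On the low side, by the same limit of 10 CPM, LGR6, a receptor of R-spondins that marks epithelial stem cells, had 0.932, 18.9 and 20.4 CPM, so that tumor 1 was 20.3-fold below the next. NPNT, nephronectin, a ligand of integrin alpha-8 beta-1 in the basement membrane, had 2.46, 47.6 and 74.2 CPM. CASP14, the caspase of cornifying keratinocytes, had 29.4, 425 and 456 CPM, and MUC5B, a secreted mucin, 4.28, 49.2 and 77.7 CPM. PRR5L, a component of mTORC2, had 1.84, 20.6 and 26.2 CPM. The 10 genes with the largest SD above that limit were these 5, PTGS2 and DHRS2, and also SPDEF, FIBCD1 and LRIG1, all 3 of them lowest in tumor 1. LRIG1, which limits ErbB receptor levels, had 3.89, 33.4 and 40.5 CPM, and it overlaps another listed gene, as does NPNT.

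Basal keratins and luminal factors moved in opposite directions in tumor 1. Of the 16 basal genes, 5 were 2-fold above both others in tumor 1, and 1, KRT15, was 2-fold below both. The former were KRT5, KRT6A, KRT14, KRT17 and DSG3, and KRT6A, which is induced in wounds, had 1310.2, 214 and 285 CPM. KRT15 had 7.05, 24.4 and 30.3 CPM. Of 15 luminal genes at 1 CPM or more none was above both others in tumor 1 and 6 were below both. The 6 were TMPRSS2, STEAP2, TRPM8, FOXA1, PSCA and SPDEF. Over all genes the shares above and below both others were 2.14% and 5.5%, to be read beside both lists. SPDEF, an ETS factor of luminal and secretory cells, had 1.95, 19.3 and 23.5 CPM, and TMPRSS2, a surface protease of luminal cells, had 0.157, 4.06 and 2.73 CPM. The median log2 difference of tumor 1 from the mean of tumors 2 and 3 was -0.68 for the luminal list and 0.48 for the basal list, beside -0.02 for all 12608 genes. In TPM the median over all genes at that level was lower, at -0.12, and the luminal and basal medians were -0.78 and 0.38. The laminin and integrin genes of the basal list did not follow its keratins, with LAMB3 at 0.26 and ITGB4 at -0.34 on the same scale.

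Among simple epithelial genes 3 of 25 were 2-fold below both others in tumor 1 and none was above, beside 5.5% and 2.14% of all genes, and by TPM 5 were below. Of the 25, 21 were lowest there, as were 5875 of the 12605 genes with a count in each tumor and a mean of at least 1 CPM. ELF3, an ETS factor of secretory epithelium, had 6.32, 25.4 and 32.6 CPM, and the claudins CLDN1 and CLDN3, which seal tight junctions, 58.99, 162 and 157 and 2.34, 9.71 and 11.9 CPM. Mesenchymal genes were mixed, with 3 of 18 above and 1 below by CPM and 2 each way by TPM. TGFBI, a matrix protein induced by TGF-beta, had 402, 113 and 118 CPM, while LOX, lysyl oxidase, which crosslinks collagen, had 11.7, 25.1 and 32.6 CPM.

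NF-kB and cytokine genes were often apart in tumor 1, mostly above the others. Of 26 genes at 1 CPM or more, 9 were 2-fold above both others and 1 was below, beside 2.14% and 5.5% of all genes. By TPM 9 were above and 2 below. With no fold limit, 16 of the 26 were highest in tumor 1 and 10 lowest, beside 5506 and 5875 of the 12605 genes. The neutrophil-attracting chemokines CXCL1, CXCL2 and CXCL3 were each highest in tumor 1, with 394, 161 and 146 CPM for CXCL1, 95.8, 28.8 and 19.3 CPM for CXCL2 and 93.3, 31.3 and 28.9 CPM for CXCL3. CSF3, the granulocyte colony-stimulating factor, had 48.5, 9.25 and 3.898 CPM, and it was among the 5 genes furthest below in tumor 3 too. IL1A and IL1B, which start the same response in neighbouring cells, had 173, 57.3 and 33.6 and 287, 128 and 67.7 CPM. The list did not move as one. ICAM1, the adhesion molecule for leukocytes, had 25.3, 113 and 120.4 CPM, lowest in tumor 1, and IL6 was nearly level with 43.2, 47.5 and 48.5 CPM.

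The promoters of these genes are shown because 3 chemokine genes that were highest in tumor 1 and the level gene IL6 hold the same kind of site. Each stretch is the 120 bases before the RefSeq transcription start on the coding strand, in build GRCh38.p14, and capitals mark matches to the NF-kB motif. The stretches are chr4:73869273-73869392 on the plus strand for CXCL1, chr4:74099196-74099315 on the minus strand for CXCL2, chr4:74038690-74038809 on the minus strand for CXCL3 and chr7:22727080-22727199 on the plus strand for IL6.
CXCL1: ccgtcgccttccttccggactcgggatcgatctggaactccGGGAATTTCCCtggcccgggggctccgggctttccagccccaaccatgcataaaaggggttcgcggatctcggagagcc
CXCL2: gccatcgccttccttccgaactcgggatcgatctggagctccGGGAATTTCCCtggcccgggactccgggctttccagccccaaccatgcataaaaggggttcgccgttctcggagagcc
CXCL3: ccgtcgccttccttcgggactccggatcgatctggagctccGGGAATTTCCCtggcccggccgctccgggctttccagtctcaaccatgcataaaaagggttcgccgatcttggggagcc
IL6: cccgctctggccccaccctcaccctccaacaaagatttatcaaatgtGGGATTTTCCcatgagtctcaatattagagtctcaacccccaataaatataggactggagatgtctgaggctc

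In each chemokine promoter 2 overlapping matches on the 2 strands form the run in capitals, which begins 79 bases before the start in CXCL1 and CXCL3 and 78 in CXCL2. In IL6 the match begins 73 bases before the start. Over windows from 250 bases before to 50 after the start, the NF-kB motif on either strand was found in 11 of the 22 genes of the list with a window and in 5.72% of 27305 genes of the table, each taken by its first listed window. It was in 14 of 198 windows of genes 2-fold above in tumor 1 (7.07%) and in 41 of 485 of genes 2-fold below (8.45%), beside 6.71% of 9561 windows of genes at 1 CPM or more. The AP-1 motif TGANTCA was in 23 of the 198 windows (11.6%) and 33 of the 485 (6.80%), beside 4.73%. Of all 27305 genes 7.76% held it. The higher share among genes above in tumor 1 was not particular to AP-1. The TATA box letters TATAAA were also in 23 of the 198 windows (11.6%), and in 38 of the 485 (7.84%), beside 5.63%. A match is a sequence of letters and not a bound site, and no window was given for MMP1, KRT14 or CSF3.

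Hypoxia genes were lower in tumor 1. Of 25 such genes 5 were 2-fold below both others in tumor 1, beside 5.5% of all genes, none was above, and 18 were lowest there, beside the 5875 of 12605 genes given above, with a median log2 difference of -0.63. NDRG1, a stress protein strongly induced by low oxygen, had 501, 2099 and 2519.9 CPM. CA9, the carbonic anhydrase that acidifies the surroundings of hypoxic cells, had 10.5, 23.2 and 34.8 CPM, and ADM, adrenomedullin, 29.2, 65.6 and 76.4 CPM. Tumors 2 and 3 lay above tumor 1 in all 3 genes. Enzymes of glycolysis in the same list were unequal, since PGK1 had 830.4, 1192 and 1288 CPM, lowest in tumor 1, but ENO1 had 3145, 2392 and 2349 CPM and ALDOA 1071, 925 and 947 CPM, both highest there.

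The CA9 promoter (chr9:35673808-35673927, plus strand, same build and extent as above) is printed because it holds the letters ACGTG of the hypoxia response element, here on the minus strand and so read as CACGT, close to its start, besides an AP-1 match.
CA9: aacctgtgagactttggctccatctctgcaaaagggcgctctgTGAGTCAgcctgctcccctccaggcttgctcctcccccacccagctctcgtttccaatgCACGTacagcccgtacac

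The capitals mark the AP-1 match, which begins 77 bases before the start, and the hypoxia motif, which begins 18 bases before it. ACGTG on either strand was in 9 of the 20 hypoxia genes with a window, in 21.6% of the 27305 genes with a window and in 26.5% of those at 1 CPM or more. Genes 2-fold below in tumor 1 held it in 93 of 485 windows (19.2%) and genes 2-fold above in 41 of 198 (20.7%). Both shares are under the 26.5%. CA9 overlaps another listed gene, so part of its counts could be shared.

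Cell cycle genes were higher in tumor 1. By CPM each of the 30 had its highest value there, as did 5506 of the 12605 genes, whereas by TPM or by total counts without TMM 29 did, the exception being MCM6, a subunit of the replicative helicase. The median log2 difference was 0.67 in CPM and 0.57 in TPM. By CPM 2 genes, TYMS and CDC20, were 2-fold above both others, beside 2.14% of all genes, and by TPM 0 were. TYMS, thymidylate synthase, had 106, 50.6 and 49.5 CPM, CDC20, an activator of the anaphase-promoting complex, 160.0, 78.5 and 67.99 CPM and MKI67, a marker of cycling cells, 302, 224 and 190.4 CPM. Interferon genes had a median difference of -0.14, with none 2-fold above or below both others in tumor 1. Sterol synthesis genes had one of -0.05 and reference genes one of 0.15. For tumor 2 minus tumor 3 the interferon list had a median log2 difference of -0.26, beside -0.006 for all genes. Summed interferon levels were 11594.5, 12914 and 15609 TPM, highest in tumor 3.

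Bone factors went both ways in tumor 1, with 4 of 28 genes above both others and 5 below, beside 2.14% and 5.5% of all genes. PTHLH had 464, 191 and 123 CPM, while MMP9, gelatinase B, had 36.3, 149 and 238 CPM, and was also among the 5 genes furthest above both others in tumor 3. For androgen enzymes 3 of 8 were above both others in tumor 1 by CPM, beside 2.14% of all genes, and 1 by TPM. One was HSD17B3, which makes testosterone, with 8.58, 2.61 and 1.51 CPM. The other 2 were AKR1C1 and AKR1C2, near-identical copies between which reads may be split.

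**Figure D4:**
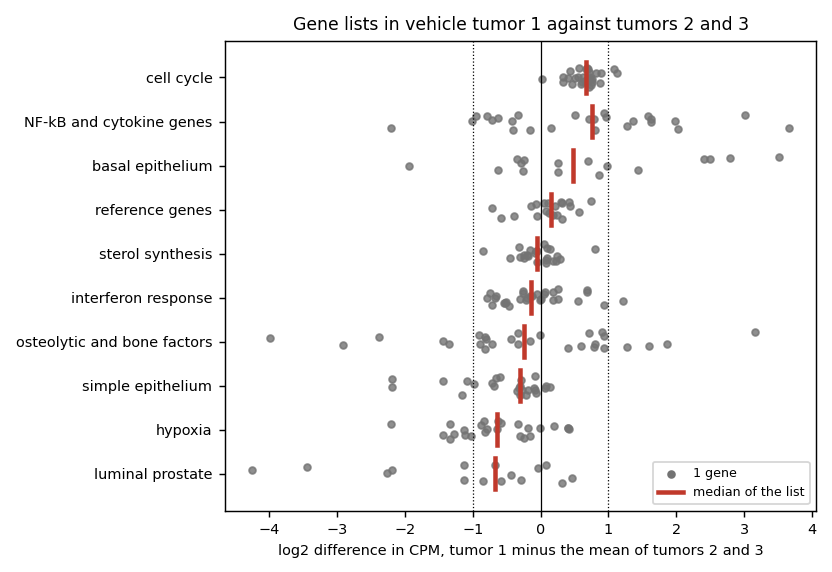
Log2 difference in CPM between tumor 1 and the mean of tumors 2 and 3, 1 point for each gene of a list with a mean of at least 1 CPM, red bars for list medians and dotted lines at 2-fold. Cell cycle genes all lie right of 0 on this scale, though MCM6 turns to the left in TPM, hypoxia and luminal genes lie mostly left of it, and NF-kB genes are spread widely on both sides.

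Differences between tumor 1 and the others were not even over the genome. Across 23 chromosomes the median log2 difference of tumor 1 from the mean of tumors 2 and 3 ran from -0.26 on chromosome 2 (849 genes) to 0.41 on chromosome 14 (408 genes), where 79.2% of genes were above the median of all genes. Chromosome 13 was next highest at 0.19, and chromosomes 9, 18 and 7 were low at -0.20, -0.18 and -0.18. For tumor 2 minus tumor 3 the same medians ran only from -0.07 to 0.06. In 241 consecutive blocks of 50 genes, ordered by the positions in the tables, 9 had a median above 0.3 and 14 below -0.3 for tumor 1, and 0 of 241 passed either limit for tumor 2 minus tumor 3. The highest block was on chromosome 14, from TTC5 to NRL, at 0.60 with 42 of 50 genes above the median of all genes. A block at the end of chromosome 4, from RXFP1 to SLC25A4, was at 0.52 with 43 of 50, while chromosome 4 as a whole was at 0.05. The lowest blocks were from TNFSF18 to SWT1 on chromosome 1, at -0.47, and from ZMYND11 to FAM171A1 on chromosome 10, at -0.45. DHRS2 lies on chromosome 14 within the highest block. PTGS2, though far above in tumor 1, lies on chromosome 1 in the block from IVNS1ABP to ATP2B4, which had a median of -0.32. Whether the difference of either gene is related to that of its block was not tested.

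**Figure D5:**
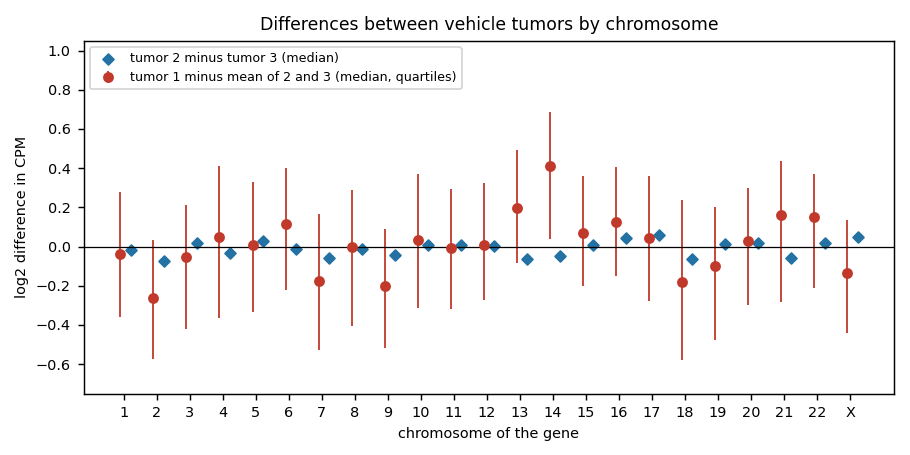
Median log2 difference in CPM by chromosome for genes with a mean of at least 1 CPM, as red points with quartile bars for tumor 1 minus the mean of tumors 2 and 3 and as blue diamonds for tumor 2 minus tumor 3. Chromosome 14 stands highest at 0.41 and chromosome 2 lowest at -0.26, and the diamonds stay near 0.

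The same difference moved with gene composition to a smaller extent. Over 5 equal groups of genes by GC content its median went from 0.03 in the lowest to -0.11 in the highest, and over 5 groups by transcript length from 0.09 in the shortest to -0.11 in the longest. The part of GC content, length and of the mitochondrial and ribosomal shares in the results for tumor 1 was not tested, and with 1 tumor apart, a trait of the tumor and a trait of its library cannot be told apart.

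Few genes set tumor 2 or tumor 3 apart. Tumor 2 was 2-fold above both others in 22 genes (0.174%) and below in 5 (0.0397%). Tumor 3 was above both in 4 (0.0317%) and below in 64 (0.508%). By the limit of 10 CPM, PAEP, glycodelin, was furthest above in tumor 2 with 6.13, 25.03 and 9.395 CPM, followed by ROBO1, ALDH1A1, ARSI and IL13RA2. Of these, ALDH1A1, ARSI and IL13RA2 were less than 2-fold above the next tumor, at 1.71-fold, 1.52-fold and 1.51-fold. ALDH1A1, an aldehyde dehydrogenase that makes retinoic acid, had 3.13, 23.6 and 13.8 CPM. SERPINB2, an inhibitor of urokinase, was furthest below in tumor 2 with 22.9, 5.95 and 12.6 CPM, and FAM46B, ACTG2, FBN1 and KRT16 followed. In tumor 3 the genes furthest above were S100P with 5.84, 9.95 and 17.8 CPM, RSAD2, MMP9, CXXC5 and MUC5B. None of them was 2-fold above the next tumor, from 1.79-fold for S100P to 1.58-fold for MUC5B. Those furthest below were UGT8 with 19.9, 9.26 and 3.85 CPM, CSF3, DPYSL3, PCDH7 and TCN1.

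Most skeletal muscle markers were highest in tumor 2. Of 25 such genes 20 had their highest level there, counted with no minimum level, and the matching share of all genes was not computed. Only 12 of the 25 had a mean of at least 1 CPM, and 6 were expressed. Of these 12 genes 7 were 2-fold above both others in tumor 2, beside 0.174% of all genes. They are 7 of the 22 genes that met this limit. ACTA1, skeletal actin, had 313, 2149 and 33 counts and 5.89, 30.4 and 0.532 TPM. MYH1, a fast myosin, had 136, 1065 and 0 counts, where a count of 0 allows up to 3 counts or 0.0269 CPM in tumor 3, and CKM, muscle creatine kinase, 10, 184 and 6. Summed over the list the level was 212, 427 and 377 TPM, of which TNNT1 alone, which did not vary by 2-fold, gave 172, 280.2 and 313 TPM. The muscle genes stayed a small part of each tumor, and whether their reads came from mouse muscle was not tested.

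Markers of other cells were checked because mouse cells are in the tissue and some of their reads can align to human genes. Macrophage genes were scarce, with 6 of 18 expressed and PTPRC, the CD45 antigen of all leukocytes, at no more than 0.209 TPM, while CD163, MRC1, TYROBP and C1QC were not listed. Summed levels of the list were 84.6, 47.8 and 39.999 TPM, most of it from SPI1 and LAPTM5, at 33.3, 20.7 and 16.7 and 39.1, 15.4 and 12.6 TPM. Of 12 endothelial genes 3 were expressed, and PECAM1 and EMCN were not listed. The 15 lymphocyte genes had 1 expressed, CD8A at 2.996, 2.63 and 3.06 TPM, and the 6 erythroid genes none. Neutrophil genes came to 991, 3813 and 4569 TPM through S100A9, while CSF3R had 0, 7 and 2 counts and MPO, ELANE and CEACAM8 were not listed.

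Of 19 fibroblast genes 12 were expressed, although DCN and THY1 were at no more than 0.121 TPM in any tumor. The list summed to 1010.2, 636 and 593 TPM, most of it from COL1A1 at 625, 381 and 336 TPM, highest in tumor 1. Of 8 skin keratinocyte genes 2 were expressed, KRT10 at 80.1, 84.98 and 90.04 TPM and IVL at 8.88, 4.83 and 3.53 TPM, and KRT1, LOR and DSG1 were not listed. These values stand beside the higher KRT5, KRT6A and KRT14 in tumor 1. Adipocyte genes had 2 of 10 expressed, PPARG and CFD, with ADIPOQ and LEP not listed, and Schwann cell genes had 2 of 6, among them MBP. In bulk tissue, fewer cells of a type and less RNA in each of them cannot be told apart.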

How the data were processed

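The members, the 31 gene lists (684 genes) and the rule for naming genes were chosen with earlier results of these data known. The deposited tables hold raw read counts per gene, which the authors made with Cutadapt, STAR and featureCounts, naming GRCh38.p13; the positions in the tables do not match that build (44 genes had the same start and end in GENCODE v44), so none is printed. All 16204 listed genes are protein coding, and each had at least 5 counts in at least 2 of the 6 libraries of its table. Strand use and removal of mouse reads are not stated. Columns of per-sample values left without a sample numbered 0.

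TPM was computed with union exon lengths of GENCODE v44, by identifier for 15869 genes and by symbol for 120; 215 had none. CPM (TMM), log2 CPM with a prior count of 2 and dispersion came from edgeR 4.0.16 in R 4.3.3, and DESeq2 1.42.0 size factors were an alternative. The dispersion step was tested on simulated data. A gene varied at 2-fold or more between its highest and lowest tumor. Named were the 15 highest genes in TPM outside mitochondrial and ribosomal protein genes and the 5 highest of each of those, the 10 largest and 10 smallest SDs, the 5 furthest above and below in each tumor, list members, and neighbours of CTNNA1 and other genes; some genes that this rule names are not reported here. Tumors were numbered in the order of their records. The labels do not say more of how the 3 tumors relate, so the spread between them may be partly technical.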

Additional observations from a re-analysis of the deposited data

How the results depend on the processing

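The count of expressed genes stayed between 8228 and 12780 over 0.5 TPM, 10 TPM, lengths of the longest transcript, removal of mitochondrial genes from the denominator, leaving out genes that overlap another listed gene (8228, added after seeing the data) and leaving out each tumor (12097 to 12377). The 1553 genes that varied by 2-fold depended on the threshold: 3984 with no minimum level, 671 at a mean of 10 CPM, 4046 at 1.5-fold and 589 at 3-fold. DESeq2 size factors gave 1552, total counts 1598 and leaving out overlapping genes 1194. Leaving out a tumor gave 86 to 1418 genes, with 86 without tumor 1 when the minimum level is taken over tumors 2 and 3. The coefficient of variation was 0.305 with no minimum level, 0.214 at 10 CPM and 0.102 to 0.333 when a tumor was left out. With no minimum level, tumor 1 stood apart in 2071 genes, tumor 2 in 504 and tumor 3 in 787. At 10 CPM the counts were 432, 3 and 5, and at 3-fold 354, 10 and 20, against 964, 27 and 68 as reported. Expressed list members numbered 445, and 324 to 471 under other limits or lengths. Per list, 0.5 TPM moved no count by over 1.5 times, 10 TPM moved 13 and the longest transcript 1 of 31. No paired analysis was possible because all 3 libraries belong to 1 group. Depth limits low genes: a gene near 0.1 TPM rests on few reads. Genes under the count limit of the tables were not analysed here.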

Other observations

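Genes that differed in tumor 1 were looked at after their values were seen, all outside the lists but F3, a surface antigen. S100A2, a calcium-binding protein of basal keratinocytes, had 1586, 595 and 476 CPM and was number 33 of all genes by mean TPM. TFPI2, an inhibitor of serine proteases in the matrix, had 546, 187 and 146 CPM. Both were highest in tumor 1, as was F3, which starts coagulation, with 305, 113 and 77.3 CPM. INHBB, the beta-B subunit of activin and inhibin, had 15.4, 133 and 148 CPM and NOTCH3, a Notch receptor, 14.2, 71.5 and 77.05 CPM, both lowest in tumor 1. TFPI2 overlaps another listed gene.

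S100A8 and S100A9 encode the partners of calprotectin, yet their levels were far apart. S100A8 had 50.5, 41.3 and 50.2 TPM, while S100A9 had 938, 3770.0 and 4518 TPM. S100A8 was even across tumors, and S100A9 was 4.49-fold higher in tumor 3 than in tumor 1 by CPM.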
